A study of Mus musculus with 6 samples.

Results

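Laminins, nidogens and the basement membrane proteoglycans perlecan and agrin are the structural partners of type IV collagen in the sheet of matrix under endothelium and epithelium and around muscle, fat and nerve. The 10 genes described here are the laminin chains Lama2, Lama4, Lama5, Lamb1, Lamb2 and Lamc1, the nidogens Nid1 and Nid2, perlecan (Hspg2) and agrin (Agrn). They were taken from the deposited table by gene symbol, each matched 1 Ensembl identifier, and they are 10 of its 34724 genes. RNA was read as native molecules on a nanopore instrument from the mouse lines 2H-11 and SVEC4-10, with 3 libraries each. The labels name 2H-11 as tumor and SVEC4-10 as normal endothelial cells. No treatment or time point is given. Both lines are SV40-transformed, come from the axillary lymph node of adult mice of strain C3H/HeJ, and stand alone for their label, so the label cannot be told apart from any other feature of a line. Whether the libraries of a line were grown as separate cultures is not given, and p-values then measure the spread between libraries, which may be technical.

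A laminin is a trimer of an alpha, a beta and a gamma chain, wound together in the endoplasmic reticulum before secretion. Laminins assemble into a network on the cell surface through integrins and dystroglycan. Nidogens bind the laminin gamma chain of Lamc1 and bridge it to type IV collagen, and perlecan and agrin add heparan sulfate chains that hold growth factors. Vessel walls are known for laminins with the alpha chains of Lama4 and Lama5, while the chain of Lama2 is best known from muscle and Schwann cells.

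Libraries held between 3628400 and 16798666 counts, and SVEC4-10 replicate 3 alone held 68.0% of that line's counts. The 10 genes together took between 497 and 3754 counts per library. Defining endothelial transcripts were scarce. Of 12 endothelial markers, 5 had no count in any library (Tie1, Erg, Vwf, Cldn5 and Emcn), and the 12 summed to between 12.7 and 19.6 CPM, the count scaled to a fixed library total, in 2H-11 and between 3.04 and 4.17 CPM in SVEC4-10. Only Eng and Egfl7 had enough counts to test. Eng was at 9.61 ± 2.60 CPM in 2H-11 against 2.45 ± 0.507 (edgeR adjusted p = 0.000343). Egfl7 was at 5.40 ± 1.35 against 0.787 ± 0.0745 CPM (edgeR adjusted p = 6.45e-05). Pecam1, Cdh5, Kdr, Tek and Esam had between 0 and 6 counts per library. The 8 mesothelial markers summed to between 58.5 and 72.4 CPM in 2H-11 and between 3399 and 4294 CPM in SVEC4-10, none of them at 0 throughout. Of the 6 tested, 5 were lower in 2H-11, and Krt19 went the other way, at 22.0 ± 7.08 against 0.196 ± 0.243 CPM (edgeR adjusted p = 4.93e-09). The 10 fibroblast and mural markers, of which Lum and Rgs5 had no count, summed to between 1578 and 2066 CPM in 2H-11 and between 1660 and 1924 CPM in SVEC4-10. The similar sums, in which Acta2 was the most abundant gene, held opposite changes, with 6 of 8 tested higher in 2H-11 and 1 lower. Thy1 and Pdgfrb were at 39.5 ± 5.16 and 27.5 ± 5.04 CPM in 2H-11 with no count in SVEC4-10, whereas Dcn stood at 13.8 ± 2.59 CPM there against 307 ± 52.4 (23.8-fold lower, edgeR adjusted p = 1.38e-11). Of 5 Schwann and muscle markers, Sox10 and Myog had no count, and the list summed to at most 4.63 CPM in any library. The 6 epithelial markers, with Epcam, Cdh1 and Esrp1 at 0, summed to at most 13.5 CPM, and 6 leukocyte markers, with Cd3e and Itgam at 0, to at most 8.54 CPM. The part of these differences in the results below was not tested.

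In 2H-11, Nid1 and Lama2 were higher, and Lama5, Nid2, Agrn and Lamc1 were lower, while Lamb1, Lamb2 and Hspg2 did not pass the threshold. Of the 9 genes with enough counts to test, 2 were therefore higher and 4 lower (edgeR's quasi-likelihood test, with p adjusted by Benjamini and Hochberg over 13187 genes and a threshold of 0.05). Among all genes tested, 20.1% were higher and 16.2% lower, 36.2% in all. The median log2 fold change of the 9 genes, 2H-11 over SVEC4-10, was -0.41, against 0.0025 over all genes tested. All 10 transcripts are longer than 4500 bases. Over the 2741 tested genes of at least that length the median was -0.16, with 9.74% higher and 19.2% lower. Those 2741 have an annotated length, as do the 9 genes, while the 13187 also include loci without an Ensembl identifier. Over the 10149 Ensembl genes of the same fit the median was -0.10. With Ensembl genes fitted alone, 1657 of 10170 were higher and 1631 lower, with 2 and 4 of the 9. For 5 of the 9 the ranges of the lines did not overlap, as for 46.8% of all genes tested. Tested against a 2-fold change, 4 of the 9 passed, namely Nid1, Lama5, Nid2 and Agrn, against 13.7% of all genes. In RNA from whole cultures, fewer cells that make a transcript and less of it per cell cannot be told apart.

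**Figure D1:**
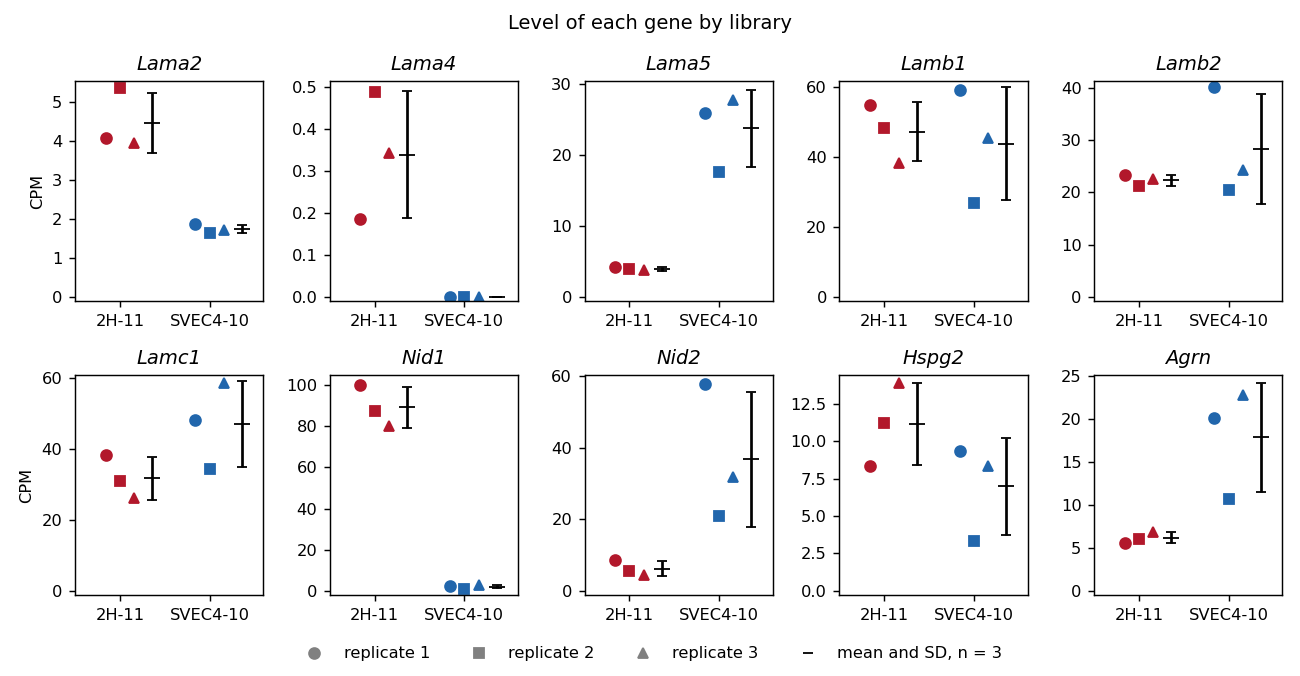
Level of each of the 10 genes in CPM (vertical axis, from 0, a different scale per gene) in the 3 libraries of 2H-11 (red) and of SVEC4-10 (blue). Symbols mark replicates, and black marks show the mean and SD of the 3 libraries. Nid1 stands at 80.2 CPM or more in 2H-11 and at 2.74 CPM or less in SVEC4-10, while Lama5, Nid2 and Agrn lie the other way round.

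**Figure D2:**
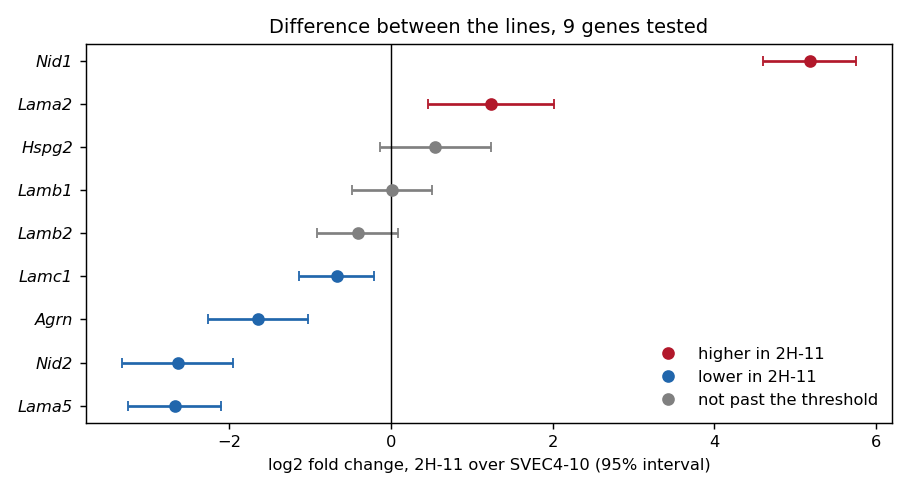
Fitted log2 fold change of the 9 genes tested, 2H-11 over SVEC4-10, with its 95% interval (horizontal axis). Red and blue points passed the threshold, grey points did not. Nid1 lies at 5.18 and Lama5 at -2.68, and the intervals of Hspg2, Lamb1 and Lamb2 include 0.

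The nidogens gave the largest contrast. Nid1 (ENSMUSG00000005397, chromosome 13, 13437551 to 13512269 on the plus strand of GRCm38, 20 exons) encodes nidogen, the rod-shaped glycoprotein that links the laminin and collagen networks. Its level was 100.1, 87.4 and 80.2 CPM in 2H-11 replicates 1 to 3, and 2.34, 1.10 and 2.74 CPM in SVEC4-10 replicates 1 to 3. All 2H-11 libraries were high and all SVEC4-10 libraries low, with no overlap. The difference was 36.3-fold (log2 fold change 5.18, SE 0.27, edgeR adjusted p = 6.93e-11), and by fitted increase the gene was the 270th of the 13187 tested. An annotated antisense gene, Gm48682, shares 143 exonic bases with Nid1 and has no row in the table, and whether the counting used strand is not given. In 2H-11 the transcript stood at percentile 86.4 of the levels of all genes tested, and in SVEC4-10 at percentile 11.1.

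Nid2 (ENSMUSG00000021806, chromosome 14, 19751265 to 19811787, plus strand, 21 exons) encodes the second nidogen, which binds many of the same partners. It stood at 8.56, 5.60 and 4.46 CPM in 2H-11 and at 57.7, 20.9 and 31.8 CPM in SVEC4-10. Again the lines did not overlap, although the SVEC4-10 libraries themselves spread widely. The gene was 6.23-fold lower in 2H-11 (log2 fold change -2.64, SE 0.33, edgeR adjusted p = 3.59e-06). On the opposite strand, Rtraf shares 437 exonic bases with Nid2. Rtraf was at 288 to 341 CPM in 2H-11 and 302 to 337 CPM in SVEC4-10. Whether the counting used strand is not given, and whether Rtraf reads entered the Nid2 counts was not tested.

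Within the nidogen counts the share of Nid1 was 92.1%, 94.0% and 94.7% in 2H-11 and 3.89%, 5.0% and 7.93% in SVEC4-10. Library size cancels in such a share. A fixed effect of transcript length cancels when the log2 ratio is compared between lines, but not in the share. A length trend that differs between libraries cancels in neither. The log2 ratio of Nid1 to Nid2 differed by 7.93 between the lines, with p = 0.1 in an exact two-sided permutation test over 3 against 3 libraries, the smallest p that this design allows (0.125 after Benjamini-Hochberg adjustment over the 5 ratios computed). Summed, the nidogens stood at 95.4 ± 12.2 CPM (SD, n = 3) in 2H-11 and 38.9 ± 19.4 CPM in SVEC4-10, and here too the 2H-11 libraries (84.6 to 109 CPM) lay above those of SVEC4-10 (22.0 to 60.1 CPM).

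Start regions from RefSeq (GRCm38.p6, 250 bases before to 50 after an annotated start) were found for 7 of the 10 genes, in 8 windows; Nid2, Lama4 and Lamc1 had no entry. Those of Nid1, the gene with the largest fitted change, and of Lama5 and Agrn, both lower in 2H-11, are printed 5′ to 3′ along the gene's strand. Capitals mark GC boxes (GGGCGG) and CCAAT boxes (CCAAT), searched on both strands.
Nid1, chr13:13437352-13437651, plus strand: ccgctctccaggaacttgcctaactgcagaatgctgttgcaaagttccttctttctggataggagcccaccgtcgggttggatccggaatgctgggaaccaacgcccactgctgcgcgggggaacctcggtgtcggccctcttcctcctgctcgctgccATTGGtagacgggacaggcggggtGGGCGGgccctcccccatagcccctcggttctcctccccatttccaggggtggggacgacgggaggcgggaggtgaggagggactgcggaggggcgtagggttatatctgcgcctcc
Lama5, chr2:180225810-180226109, minus strand: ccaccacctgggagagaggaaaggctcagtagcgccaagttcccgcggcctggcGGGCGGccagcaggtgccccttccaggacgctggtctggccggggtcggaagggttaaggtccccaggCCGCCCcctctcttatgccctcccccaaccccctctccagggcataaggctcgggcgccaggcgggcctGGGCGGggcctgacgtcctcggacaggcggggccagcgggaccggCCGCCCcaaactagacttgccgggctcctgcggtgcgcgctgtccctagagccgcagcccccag
Agrn, chr4:156197439-156197738, minus strand: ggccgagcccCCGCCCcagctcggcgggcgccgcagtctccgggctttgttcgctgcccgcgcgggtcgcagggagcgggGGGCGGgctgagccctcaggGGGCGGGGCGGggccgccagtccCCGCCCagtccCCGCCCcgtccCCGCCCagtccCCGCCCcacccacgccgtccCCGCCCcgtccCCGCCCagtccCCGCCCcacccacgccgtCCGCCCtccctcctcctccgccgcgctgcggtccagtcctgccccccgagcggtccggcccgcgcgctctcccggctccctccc
The Nid1 window held 1 GC box and 1 CCAAT box with 64.7% G and C, the Lama5 window 4 GC boxes with 72.7%, and the printed Agrn window 12 GC boxes, of which 2 overlap by a base, with 83.3%. A second annotated Agrn start, chr4:156186210-156186509, is not printed, and its window held 2 GC boxes and 1 E-box with 61.3% G and C. Among 32544 distinct windows of this length, 35.9% held a GC box and 37.4% a CCAAT box, and the median G and C content was 53.0%. Of the other motifs searched, the TATA box (TATAAA, in 13.6% of windows) and an AP-1 site (TGANTCA, 7.8%) matched none of the 3 windows. GGAATG, the TEAD site (14.6%), matched once in Nid1, and the E-box (CANNTG, 72.3%) matched 2 times in Lama5. The matches describe letters in these windows only.

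Among the laminin alpha chains, Lama5 was lower and Lama2 higher in 2H-11. Lama5 (ENSMUSG00000015647, chromosome 2, 180176373 to 180225859, minus strand, 79 exons) encodes the broadly expressed alpha chain of mature vessel and epithelial basement membranes. Levels were 4.28, 3.90 and 3.78 CPM in 2H-11 against 25.9, 17.6 and 27.8 CPM in SVEC4-10. The 2H-11 libraries were uniformly low, and the lines did not overlap. The fitted difference was 6.39-fold lower in 2H-11 (log2 fold change -2.68, SE 0.27, edgeR adjusted p = 3.53e-07). In 2H-11 the level rests on 16 to 23 counts per library, and the 61 summed counts give 3.99 CPM with an exact Poisson interval of 3.05 to 5.12 CPM (95%, counting error only).

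Lama2 (ENSMUSG00000019899, chromosome 10, 26980036 to 27619758, minus strand, 65 exons), the alpha chain whose loss causes a congenital muscular dystrophy, went the other way. It was at 4.09, 5.36 and 3.95 CPM in 2H-11 and at 1.87, 1.65 and 1.73 CPM in SVEC4-10. No library of one line reached the range of the other, but the counts were few, between 6 and 29 per library. The gene was 2.37-fold higher in 2H-11 (log2 fold change 1.24, SE 0.37, edgeR adjusted p = 0.0134). That call was lost without 2H-11 replicate 2 (adjusted p = 0.0940), without SVEC4-10 replicate 3 (0.0776) and with DESeq2 (0.0843), and in the authors' deposited table its log2 fold change was 1.13 with an adjusted p of 0.0472. An annotated antisense gene, Gm48084, shares 631 exonic bases with Lama2 and has no row in the table.

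Lama4 (ENSMUSG00000019846, chromosome 10, 38965515 to 39110188, plus strand, 38 exons), the alpha chain most closely tied to endothelium, was close to undetected. It had 1, 2 and 2 counts in the 2H-11 libraries and none in SVEC4-10, where 0 counts allow up to 0.121 CPM (3 counts over the line's total). The 5 counts in 2H-11 give 0.327 CPM, with an exact Poisson interval of 0.106 to 0.762 CPM that includes that limit. It did not reach the minimum for testing, and with no filter on low counts it did not pass the threshold (edgeR adjusted p = 0.0668). A difference in Lama4 was not detectable at this depth.

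Lama2 took 48.9%, 57.9% and 51.1% of the summed counts of Lama2 and Lama5 in 2H-11, and 6.72%, 8.57% and 5.85% in SVEC4-10. The log2 ratio differed by 3.82 (exact permutation p = 0.1, adjusted 0.125). The log2 ratio of Lama4 to Lama5 differed by 4.94 (exact permutation p = 0.1, adjusted 0.125), a value that rests on the 0 counts of Lama4 in SVEC4-10. The remaining alpha chains were at the limit of detection, with 0 counts of Lama1 and 2 of Lama3 in 2H-11 and 3 and 0 in SVEC4-10.

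**Figure D3:**
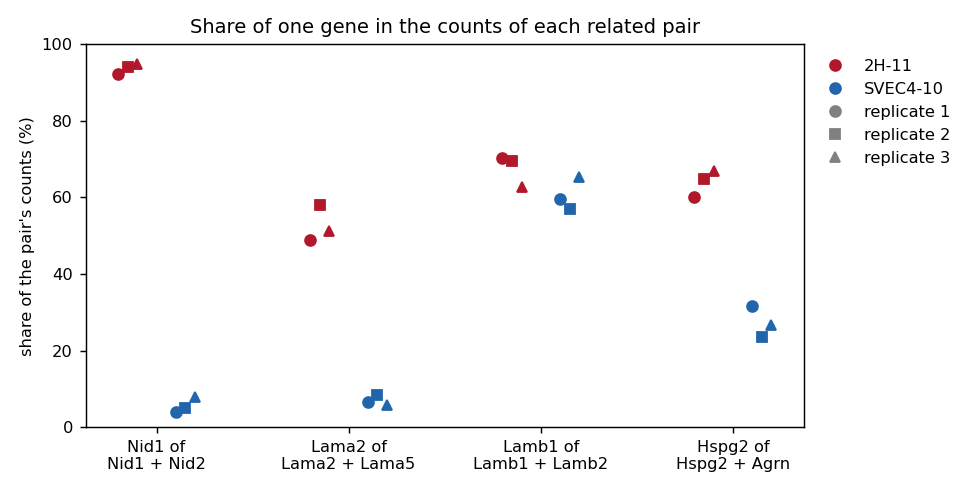
Share of the first gene in the summed counts of 4 related pairs (vertical axis, percent), by library, with 2H-11 in red, SVEC4-10 in blue and symbols for replicates. Nid1 makes up at least 92.1% of nidogen counts in 2H-11 and at most 7.93% in SVEC4-10, whereas the shares of Lamb1 overlap between the lines.

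Neither beta chain passed the threshold, and the gamma chain Lamc1 was lower in 2H-11. Lamb1 (ENSMUSG00000002900, chromosome 12, 31265234 to 31329644, plus strand, 33 exons), the beta chain of most embryonic and vascular laminins, was at 55.1, 48.5 and 38.3 CPM in 2H-11 and at 59.4, 27.0 and 45.5 CPM in SVEC4-10. The ranges overlapped throughout (log2 fold change 0.015, 95% interval -0.48 to 0.51, edgeR adjusted p = 0.969). Lamb2 (ENSMUSG00000052911, chromosome 9, 108479736 to 108490530, plus strand, 33 exons), the beta chain of the neuromuscular junction and the kidney filter, was at 23.3, 21.2 and 22.7 CPM against 40.2, 20.4 and 24.3 CPM. Only SVEC4-10 replicate 1 stood apart, and the gene did not pass the threshold (log2 fold change -0.41, 95% interval -0.91 to 0.087, edgeR adjusted p = 0.193). The share of Lamb1 in the pair was 67.6 ± 4.13% in 2H-11 and 60.6 ± 4.19% in SVEC4-10 (SD, n = 3), with overlapping ranges (exact permutation p = 0.2, adjusted 0.2).

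Lamc1 (ENSMUSG00000026478, chromosome 1, 153218922 to 153332786, minus strand, 28 exons) encodes the gamma chain shared by most laminins and carries the nidogen binding site. Its levels were 38.1, 30.9 and 26.1 CPM in 2H-11 and 48.1, 34.2 and 58.5 CPM in SVEC4-10, so that SVEC4-10 replicate 2 lay inside the range of 2H-11. The gene was 1.59-fold lower in 2H-11 (log2 fold change -0.67, SE 0.22, edgeR adjusted p = 0.0241). The call was lost without 2H-11 replicate 2 (adjusted p = 0.0810) or 3 (0.0691), without SVEC4-10 replicate 3 (0.125), with scaling by library size alone (0.0664) and after a trend with transcript length was removed (0.0930). In the authors' deposited table the log2 fold change was -0.70 and the adjusted p 0.0136. Lamc3 had 0 counts in 2H-11 and 2, 2 and 7 in SVEC4-10, too few to be tested with the filter (adjusted p = 0.0283 without it).

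Added up by class, alpha chain transcripts were scarcer than beta chain transcripts in both lines. The 5 alpha chain genes summed to 8.07 to 9.74 CPM in 2H-11 and 19.3 to 29.6 CPM in SVEC4-10. The 3 beta chain genes summed to 61.1 to 79.3 and 47.4 to 99.6 CPM. Per kb of annotated transcript the alpha class stood at 0.882 ± 0.0915 CPM per kb in 2H-11 and 2.29 ± 0.496 in SVEC4-10, and the beta class at 12.2 ± 1.58 and 12.7 ± 4.57 (SD, n = 3), so the alpha class was the lower on both scales. Alpha chains made up 10.1%, 12.2% and 11.7% of the alpha and beta chain counts in 2H-11 and 22.1%, 28.9% and 29.6% in SVEC4-10. That share was compared after the values of the single chains were seen and carries no test.

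Of the proteoglycans, agrin was lower in 2H-11 and perlecan did not pass the threshold. Agrn (ENSMUSG00000041936, chromosome 4, 156165290 to 156197488, minus strand, 38 exons) encodes agrin, which gathers acetylcholine receptors at the nerve-muscle contact and binds laminin and dystroglycan elsewhere. It was at 5.58, 6.09 and 6.87 CPM in 2H-11 and at 20.1, 10.7 and 22.9 CPM in SVEC4-10. The lines did not overlap, with SVEC4-10 replicate 2 nearest to 2H-11. Agrin transcripts were 3.12-fold lower in 2H-11 (log2 fold change -1.64, SE 0.29, edgeR adjusted p = 0.000210). Hspg2 (ENSMUSG00000028763, chromosome 4, 137468769 to 137570630, plus strand, 97 exons), which encodes the very large core protein perlecan, was at 8.37, 11.2 and 13.9 CPM against 9.35, 3.31 and 8.33 CPM. Its ranges overlapped, and it did not pass the threshold (log2 fold change 0.55, 95% interval -0.14 to 1.24, edgeR adjusted p = 0.209), but did so with all libraries thinned to the smallest (log2 fold change 0.97, adjusted p = 0.0380). Perlecan took 60.0%, 64.8% and 66.9% of the summed proteoglycan counts in 2H-11 and 31.7%, 23.5% and 26.7% in SVEC4-10 (difference of log2 ratios 2.22, exact permutation p = 0.1, adjusted 0.125).

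Per kb of transcript, the order of the 10 genes in 2H-11 began with Nid1 at 14.6 ± 1.66 CPM per kb and Lamb1 at 8.17 ± 1.46, whose libraries did not overlap. Lamc1 and Lamb2 followed at 4.16 ± 0.795 and 3.97 ± 0.189, which could not be ordered beyond their spread. Nid2 (1.27 ± 0.433), Agrn (0.851 ± 0.0891), Hspg2 (0.787 ± 0.195), Lama2 (0.465 ± 0.0807), Lama5 (0.350 ± 0.0230) and Lama4 (0.0560 ± 0.0249) came last, and of these the ranges of Nid2, Agrn and Hspg2 overlapped one another. In SVEC4-10 the leading genes were Lamb1 (7.60 ± 2.81), Nid2 (7.55 ± 3.88), Lamc1 (6.16 ± 1.6) and Lamb2 (5.03 ± 1.86), all with overlapping libraries. Agrn (2.47 ± 0.874) and Lama5 (2.09 ± 0.475) overlapped as well, and Hspg2 (0.493 ± 0.228), Nid1 (0.338 ± 0.140) and Lama2 (0.182 ± 0.0114) stood below them, with Nid1 overlapping both of its neighbours. A direct RNA read starts at the poly(A) tail, so counts need not grow with length as they do with fragmented cDNA, and the order per kb is given as a description.

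The 10 transcripts are long, from 4.88 kb (Nid2) to 14.2 kb (Hspg2) by the GENCODE M21 annotation, and SVEC4-10 replicate 2 was low for long transcripts. Among the SVEC4-10 libraries alone, all 9 genes with a count in that line were lowest in replicate 2. The same held for 45.9% of all genes tested and 59.0% of the 2741 tested genes of 4500 bases or more. Genes of 8 kb or more lay 0.17 log2 units below the line mean in that library and 0.15 above it in replicate 3 (medians over 546 genes). Between the lines, genes of 4500 bases or more had a median log2 fold change of -0.16, with 9.74% higher and 19.2% lower. For genes of 2000 to 3000 bases these values were -0.10, 13.9% and 19.4%. The length trend was then removed from every library, an alternative chosen after seeing the data. That trend was measured from each gene's mean over both lines, so it also held the difference between the lines. Scaling was computed again over the genes with an annotated length. Nid1, Lama2, Lama5, Nid2 and Agrn kept their calls there and Lamc1 did not. In that fit the median log2 fold change over all 10148 genes was 0.10, a shift of the whole set towards 2H-11. Results given with the length trend removed therefore cannot separate length from this shift.

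**Figure D4:**
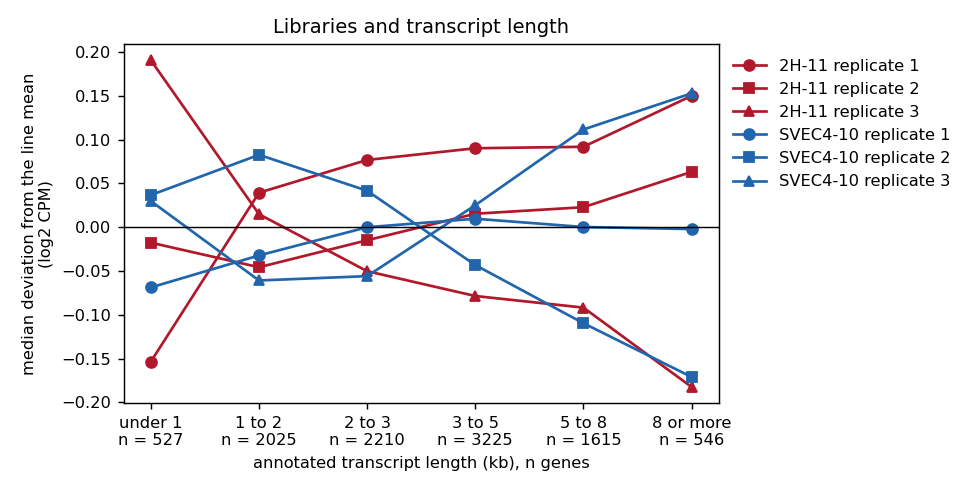
Median deviation of each library from the mean of its line (vertical axis, log2 CPM) for genes grouped by annotated transcript length in kb (horizontal axis), with 2H-11 in red and SVEC4-10 in blue. SVEC4-10 replicate 2 and 2H-11 replicate 3 fall with length, to -0.17 and -0.18 at 8 kb or more, while SVEC4-10 replicate 3 and 2H-11 replicate 1 rise, both to 0.15.

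The partners of these genes were counted next, over lists of other basement membrane genes. The counts of each list stand beside 20.1% higher and 16.2% lower over all genes tested. With Ensembl genes fitted alone, 1657 of 10170 were higher and 1631 lower. Of 10 basement membrane collagen chains, 6 were tested, with 4 lower (Col4a1, Col4a2, Col4a5 and Col4a6) and 2 higher (Col18a1 and Col7a1) in 2H-11, and a median log2 fold change of -0.97. The ranges of Col4a2 overlapped between the lines (edgeR adjusted p = 0.0311). The number lower was 3 with library size alone, Ensembl genes only, thinning, the length trend removed, and without 2H-11 replicate 1, 2H-11 replicate 2 or SVEC4-10 replicate 3, and 2 against a 2-fold change. Col4a1, a chain of the main vascular type IV collagen, was at 53.8 ± 5.39 against 135 ± 32.6 CPM (2.67-fold lower, edgeR adjusted p = 1.33e-05). Col4a6 was at 2.42 ± 0.187 against 20.2 ± 7.34 CPM (8.87-fold lower, adjusted p = 4.15e-07). Col18a1, whose C-terminal fragment is endostatin, was at 6.88 ± 0.912 against 0.406 ± 0.113 CPM (14.3-fold higher, adjusted p = 1.55e-06).

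Other basement membrane proteins went both ways, with 4 of 10 tested higher (Fbln1, Matn2, Vwa1 and Ecm1) and 3 lower (Fras1, Npnt and Tinagl1), at a median log2 fold change of 0.26. Fbln1, fibulin-1, a nidogen-binding protein, had 31, 19 and 37 counts in 2H-11 against 0, 0 and 1 (ratio of summed counts per total 140, 95% counting interval 24.5 to 5609, edgeR adjusted p = 2.62e-07). With SVEC4-10 replicate 3 left out, Fbln1 was at least 14.7-fold higher. Fras1, which anchors embryonic epithelia, had 0, 0 and 1 counts against 27, 14 and 105 (SVEC4-10 over 2H-11 ratio 90.5, interval 15.98 to 3597, adjusted p = 1.13e-06). The ratio was 58.7 (10.4 to 2334) without 2H-11 replicate 1, and without replicate 3 the gene was at least 17.3-fold lower. Npnt, the integrin ligand nephronectin, was at 0.601 ± 0.114 against 6.70 ± 2.86 CPM (adjusted p = 8.70e-06).

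Receptors for these proteins were mostly lower, with 4 of 6 tested lower (Itga1, Itga3, Itga6 and Dag1), 1 higher (Bcam) and a median log2 fold change of -1.44. The number higher was 2 with DESeq2 and with any single library but 2H-11 replicate 3 left out, 3 with no filter on low counts, where Itgb4 (19 against 3 counts) and Lrp4 (40 against 13) passed too, and 0 against a 2-fold change. Itga3, a laminin-binding integrin chain, was at 10.97 ± 1.15 against 35.6 ± 12.0 CPM (3.43-fold lower, edgeR adjusted p = 1.94e-05). Itga6, another, was at 5.61 ± 2.27 against 18.3 ± 3.66 CPM (3.61-fold lower, adjusted p = 0.000102), and Itga1, which binds collagen and laminin, was at 2.45 ± 0.635 against 11.1 ± 2.77 CPM (4.72-fold lower, adjusted p = 2.75e-05). Their shared beta chain Itgb1 was not called (206 ± 27.0 against 176 ± 19.4 CPM, adjusted p = 0.612).

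Of 17 tested enzymes that build and trim heparan sulfate, the sugar carried by perlecan and agrin, 0 were higher and 4 lower, namely Hs3st1, Sulf1, Hs6st2 and Hs6st1, with a median log2 fold change of -0.087. At an unadjusted p under 0.05 edgeR gave 2 higher, DESeq2 called 1 higher and limma-voom 0. The number higher was 2 with Ensembl genes only and with no filter on low counts. It was 1 with library size alone, with thinning, and without 2H-11 replicate 3, SVEC4-10 replicate 1 or SVEC4-10 replicate 2. With the length trend removed, which moved the median over all genes to 0.10, 4 were higher. Hs3st1, a 3-O-sulfotransferase, had no count in 2H-11 and was at 14.9 ± 3.55 CPM in SVEC4-10, at least 76.0-fold lower in 2H-11 (edgeR adjusted p = 2.58e-08), with bounds of 49.3 without 2H-11 replicate 1 and 47.1 without replicate 3. Sulf1, an extracellular 6-O-sulfatase, was at 11.8 ± 2.63 against 68.7 ± 4.26 CPM (6.26-fold lower, adjusted p = 2.83e-08). Hs6st2, a 6-O-sulfotransferase, was at 7.14 ± 2.25 against 51.2 ± 10.9 CPM (7.69-fold lower, adjusted p = 9.58e-08).

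**Figure D5:**
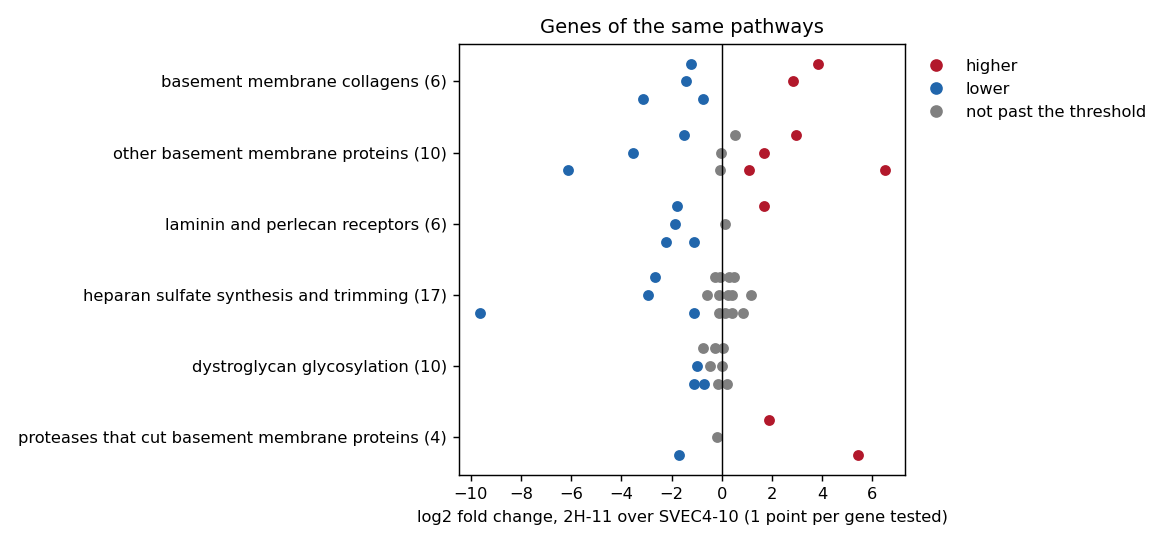
Fitted log2 fold change, 2H-11 over SVEC4-10 (horizontal axis), of each tested gene of 6 lists of related genes, with the number tested in brackets. Red and blue points passed the threshold and grey points did not. Fitted values of genes with few or no counts in a line, such as Hs3st1, depend on the prior count and are no bound.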

How the data were processed

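Native RNA of 2H-11 and SVEC4-10 was read with the direct RNA kit of Oxford Nanopore, per the labels' protocols. The authors deposited raw read counts per gene and the same counts as CPM, per the file headers. The deposited other columns are a DESeq2 log2 fold change and adjusted p by the authors. Builds mm10 and GRCm38 are named in the submitters' processing notes, while no label or header names the aligner, counter, annotation or use of strand. The 13 table lines without a gene name were dropped.

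Counts were tested with edgeR 4.0.16 (R 4.3.3): filterByExpr (minimum count 10, minimum total 15), TMM, quasi-likelihood test with line as its only term, and Benjamini-Hochberg adjustment over 13187 genes at 0.05. The fit was tested on simulated data. Ratios within families were compared by exact permutation over libraries. Coordinates, exons and lengths (longest basic coding transcript) came from GENCODE M21, where 22022 of 22036 Ensembl identifiers were found. Alternatives included DESeq2 1.42.0 and limma 3.58.1 (voom). Named were the 10 genes and, per list, the 3 smallest p past the threshold or, where fewer passed, also the most abundant gene; others were named after their values were seen. The genes and lists were chosen with earlier results of these data known. Some genes of the lists are not reported here. Counting intervals and limits cover counting error only.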

Additional observations from a re-analysis of the deposited data

How the results depend on the processing

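Nid1 kept its direction and call under all 17 alternatives (log2 fold change 4.96 to 5.52), as did Lama5 (-2.87 to -2.39), Nid2 (-2.96 to -2.28) and Agrn (-1.91 to -1.35). Genes higher numbered 1657 of 10170 with Ensembl genes only, a smaller set than the 13187 of the main fit. Tested against a 2-fold change, 1134 of the 13187 were higher and 671 lower. With the length trend removed 1390 of 10148 were lower, and the median log2 fold change over all genes was 0.10. Of the 9 genes, 1 was higher with DESeq2 and against a 2-fold change, and 1 to 2 with single libraries left out. Of the 53 related genes tested, 9 were higher and 19 lower, beside 20.1% and 16.2% of all genes tested. Those shares include loci without an Ensembl identifier, while the 53 are all Ensembl genes. With Ensembl genes only, 11 of the 53 were higher and 18 lower, beside 1657 and 1631 of 10170. Against a 2-fold change 12 of the 53 were lower, beside 671 of 13187 genes. With the length trend removed 14 of the 53 were higher, beside 2082 of 10148 genes. Lamb1, never past the threshold, changed sign with no filter (-0.057), with DESeq2 (-0.034) and with single libraries left out (-0.25 to 0.18). The cause was not tested. The median log2 fold change of Ensembl genes was -0.10, and -0.0013 when fitted alone. Same-numbered libraries shared no visible deviation from their line means, with correlations of -0.0042, 0.050 and 0.0017. Whether they were prepared in pairs is not given. With the number as a replicate block 2491 genes were higher and 1970 lower, with 2 and 4 of the 9 genes and 9 and 19 of the related genes; the ratio differences gave exact p of 0.25 to 0.5 in the paired sign-flip test, whose smallest p is 0.25. Lama2 rests on 6 to 29 counts per library, and with all libraries thinned to the smallest its log2 fold change was 1.53 (edgeR adjusted p = 0.00666).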

Other observations

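The 2 remaining lists concern how laminin and agrin are bound and cut. Their counts stand beside 20.1% higher and 16.2% lower over all genes tested. Of 10 tested enzymes that put the laminin-binding sugar on dystroglycan, 0 were higher and 3 lower in 2H-11, with a median log2 fold change of -0.37. At an unadjusted p under 0.05 edgeR gave 0 higher as well, and DESeq2 and limma-voom called 0. Rxylt1, a xylosyltransferase, was at 53.3 ± 8.19 against 98.0 ± 15.9 CPM (1.96-fold lower, edgeR adjusted p = 0.000997), and B4gat1, which primes the sugar chain, was at 20.6 ± 3.20 against 41.8 ± 13.8 CPM (2.14-fold lower, adjusted p = 0.00116). B3galnt2 was 1.66-fold lower (adjusted p = 0.0228), a call lost without 2H-11 replicate 2 (0.0889), without SVEC4-10 replicate 1 (0.103), with scaling by library size alone (0.0586) and with the length trend removed (0.0909).

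Among proteases that cut basement membrane proteins, 2 of 4 tested were higher (Mmp2 and Bmp1) and 1 lower (Ctsl), at a median log2 fold change of 0.83. Those lower numbered 2 with DESeq2, with no filter on low counts, and without 2H-11 replicate 1, 2 or 3 or SVEC4-10 replicate 2. Bmp1, which trims laminin and perlecan, was at 49.2 ± 3.31 against 12.1 ± 5.30 CPM (3.65-fold higher, edgeR adjusted p = 1.58e-05). Prss12, neurotrypsin, the protease known for cutting agrin, did not pass the filter on low counts, with 40, 5 and 157 counts in SVEC4-10 against 1 in each 2H-11 library. Its summed counts gave a ratio of 41.7, lower in 2H-11 (95% counting interval 14.1 to 204), and without the filter it passed the threshold (adjusted p = 5.49e-17). Hpse, heparanase, which cuts heparan sulfate, had 7, 11 and 12 counts in 2H-11 and 0, 0 and 1 in SVEC4-10 (ratio 48.4, interval 8.05 to 1976, adjusted p = 2.97e-06 without the filter), and without SVEC4-10 replicate 3 it was at least 5.31-fold higher. Lrp4, the agrin receptor, had 11, 11 and 18 counts against 0, 0 and 13 (adjusted p = 0.000784 without the filter). These last 3 genes were chosen after their values were seen. On the same counts, edgeR without the filter can give far smaller adjusted p-values, 4.67e-66 for Nid1 against 6.93e-11 with it. Values without the filter, here and above, are therefore not comparable with the others.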
